A study of Mus musculus with 12 samples.

Results

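The genes described here are 10 nuclear partners of β-catenin, chosen by name from the 54532 genes of the deposited expression tables. They are the TCF/LEF transcription factors *Tcf7*, *Tcf7l1*, *Tcf7l2* and *Lef1*, the β-catenin cofactors *Bcl9*, *Bcl9l*, *Pygo1* and *Pygo2*, and the corepressors *Tle1* and *Tle3*. RNA-seq measured them in 12 mouse libraries, 3 in each of 4 groups, all from adult, untreated animals on a C57BL/6 background. Small intestine crypts came from Wild type mice and from ieCtnnb1KO mice, which are homozygous for a CRISPR/Cas9 germline deletion of an intestinal enhancer upstream of *Ctnnb1*, the gene of β-catenin. Colon tumors came from APCmin/+ mice and from APCmin/+;ieCtnnb1KO mice, so that every tumor library, the controls included, carries the APCmin/+ allele. The deletion is in all cells of the animal, with no Cre or cell-type promoter to restrict it, and it lies outside the transcribed part of *Ctnnb1*. The labels do not state that replicates are separate animals, while the figure legends of the study count 3 mice in each group; the p-values measure the spread between these libraries.

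In canonical Wnt signaling, β-catenin that escapes degradation enters the nucleus and binds TCF/LEF factors, which recognize DNA at target genes. BCL9 and BCL9L link β-catenin to the Pygopus proteins, which help activate transcription, and TLE proteins (Groucho family) bind TCF/LEF factors and repress the same genes when β-catenin is absent. This pathway maintains the stem cells of intestinal crypts, where TCF7L2 is essential, and loss of APC, part of the complex that degrades β-catenin, starts intestinal adenomas.

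The authors deposited FPKM, fragments per kilobase of gene scaled by a divisor of each library, in separate tables for crypts and for tumors. Steps in these values gave back whole fragments for 100% of the values within 0.2 fragments, and the libraries held between 14457896 and 16156712 fragments on genes. The divisor was not this depth: it was 15481356 for 14457896 fragments in Wild type crypt replicate 1 and 15291344 for 16042558 in replicate 2. In tumors the divisor exceeded the fragments on genes in every control library and fell below them in every knockout library. Values as deposited are therefore not scaled to plain depth. The replicate 3 libraries of both tumor groups stood apart from the other 10 libraries. *Xist*, a transcript of female cells, had an FPKM of 114 in control tumor replicate 3 and 61.4 in knockout tumor replicate 3, and between 0.00347 and 0.0623 in the other libraries. The Y-linked gene *Ddx3y* had an FPKM of 0 and 0.0247 in these 2 tumor libraries, against 8.32 to 12.9 in the others. As each tumor group holds 1 such library, the results in tumors are given with and without them, an alternative chosen after seeing the data.

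*Ctnnb1*, the gene next to the deleted enhancer, checked the labels. Its FPKM was 121, 134 and 123 in Wild type crypts (replicates 1, 2 and 3) and 102, 104 and 105 in ieCtnnb1KO crypts. In tumors it was 299, 363 and 358 in APCmin/+ libraries and 279, 248 and 250 in APCmin/+;ieCtnnb1KO libraries. As deposited, in both tissues all 3 knockout libraries lay below all 3 control libraries (exact two-sided permutation test, p = 0.1 in crypts and 0.1 in tumors, the smallest p that 3 libraries against 3 can give). With all libraries brought to an equal FPKM total, *Ctnnb1* stayed apart in tumors, but in crypts the groups overlapped (exact permutation p = 0.3) and the log2 fold change was -0.13. Without the 50 highest genes it stayed apart in both tissues, with a value of -0.34 in crypts, and quantile normalization gave -0.41. *Ctnnb1* had a log2 fold change of -0.28 (standard error 0.118, limma adjusted p = 0.849) in crypts and -0.39 (standard error 0.128, limma adjusted p = 0.303) in tumors, both as deposited. Without the *Xist*-expressing libraries the value in tumors was -0.32. *Axin2*, a direct target of the pathway, had an FPKM of 20.6, 19.8 and 23.2 in Wild type and 17.7, 18.3 and 13.6 in ieCtnnb1KO crypts. In tumors its FPKM was 96.5, 104 and 106 in controls and 77.8, 80.8 and 85.3 in knockouts, again with all knockout libraries below all control libraries in both tissues as deposited and without the 50 highest genes, and in tumors alone with equal totals. *Axin2* had a log2 fold change of -0.36 in crypts (limma adjusted p = 0.845) and -0.32 in tumors (limma adjusted p = 0.270). With equal totals its value was -0.22 in crypts and -0.43 in tumors, and quantile normalization gave -0.42 and -0.52.

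Among the 10 members, 7 passed the filter for testing in crypts, an average of 0.5 FPKM or more across the 6 libraries, and 10 passed it in tumors. *Tcf7l1*, *Lef1* and *Pygo1* were below it in crypts. Knockout and control were compared by limma on log2(FPKM + 0.5), a scale that understates changes of low genes, with Benjamini-Hochberg adjustment over all tested genes. In crypts, 0 of the 7 members had an adjusted p under 0.05 (range 0.877 to 1.0), against 0% of 14176 genes, and 0 had an unadjusted p under 0.05, against 5.85% of all genes (829 genes, 805 by limma-voom on the recovered fragments, which also called 0 at an adjusted p under 0.05). None of these 7 members had all knockout libraries below or all above the controls, against 5.15% and 6.79% of all genes. In tumors, 0 of the 10 members had an adjusted p under 0.05 (range 0.340 to 0.901), against 0% of 16743 genes, and 1 had an unadjusted p under 0.05, against 14.5% of all genes (2421 genes, 2541 by limma-voom, which also called 0). That member was *Pygo2*. Which members had an unadjusted p under 0.05 in tumors changed with the method: limma-voom gave 2 (*Pygo2* and *Bcl9l*), and each of 3 rescalings (equal totals, quantile normalization, without the 50 highest genes) gave 3 (*Tcf7*, *Bcl9l* and *Tle3*) and not *Pygo2*. In tumors 1 member had all knockout libraries below the controls and 1 had all above, against 10.6% and 11.4% of all genes. With equal totals 5 members lay below (*Tcf7*, *Bcl9l*, *Pygo1*, *Tle1* and *Tle3*) and 1 above (*Pygo2*), against 17.5% and 5.74% of all genes, and the same members did so without the 50 highest genes, against 17.4% and 5.97%. In crypts the counts stayed at 0 with equal totals, against 2.18% and 10% of all genes, while *Bcl9* and *Tle3* lay below without the 50 highest genes, against 7.23%. Overlaps between groups given for single genes refer to the values as deposited.

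The direction of the small differences depended on the scaling in crypts. In crypts, 6 of 7 members were lower in the knockout as deposited, 3 of 7 once FPKM totals were made equal, 5 of 7 with quantile normalization, and 6 of 7 rescaled without the 50 highest genes. Equal totals shifted the all-gene median in crypts from 0.01 to 0.14 on the log2 scale. The median over the 7 members was -0.10 as deposited and 0.03 with the same total. In tumors, 8 of 10 members were lower in the knockout under each of these 4 scalings and by limma-voom, which kept the deposited scaling. Their median was -0.12 as deposited, beside 0.01 for all tested genes. It was -0.23 beside -0.09 with equal totals and without the 50 highest genes, and -0.18 beside -0.01 with quantile normalization. Leaving out the *Xist*-expressing libraries kept the direction of all 10 members in tumors, with limma adjusted p between 0.694 and 0.886. With 2 libraries left in each group, 2 members lay wholly below the controls and 2 wholly above. The share of all genes that did so was not computed, and separation of so few libraries carries little weight.

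**Figure D1:**
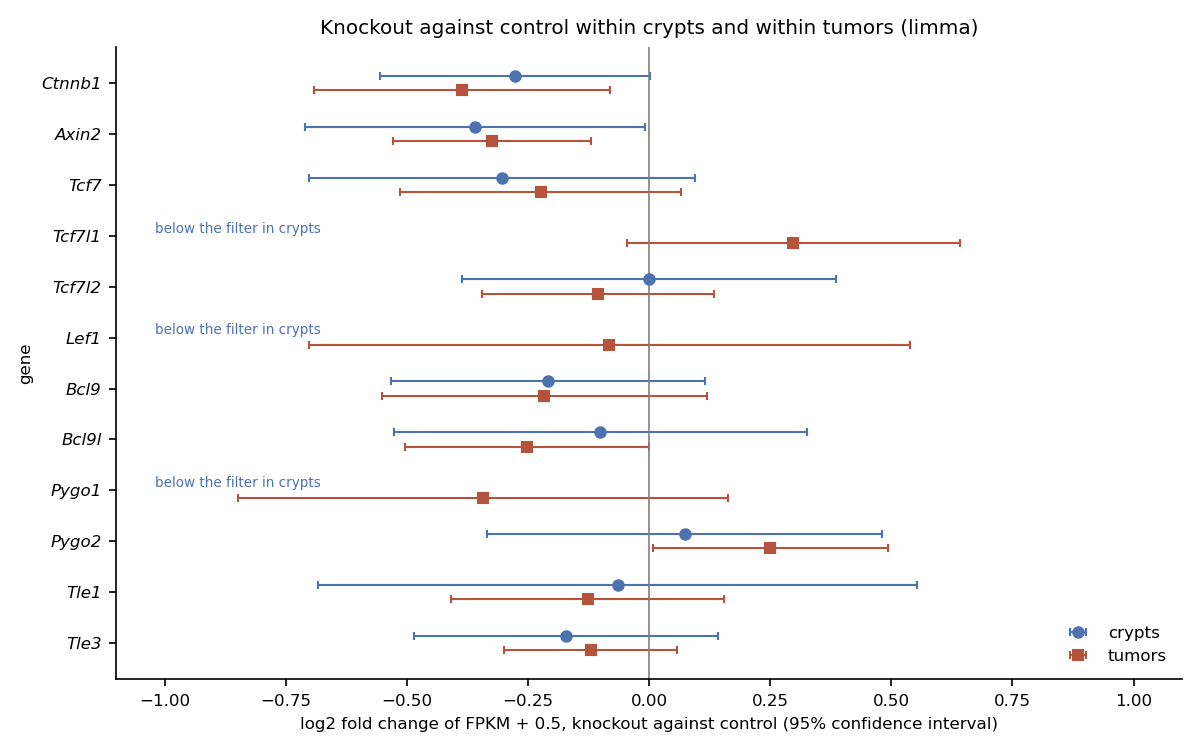
Log2 fold changes of FPKM + 0.5 (x axis) of *Ctnnb1*, *Axin2* and the 10 members (y axis), knockout against control within crypts (blue circles) and within tumors (red squares), with 95% confidence intervals from limma. *Ctnnb1* and *Axin2* were lower in both tissues as deposited, though the interval of *Ctnnb1* in crypts includes 0. With equal totals the groups overlapped in crypts for both genes. Among the members as deposited, the interval leaves out 0 for *Pygo2* in tumors alone, which did not hold under the 3 rescalings.

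The difference between the knockout effects in tumors and in crypts was tested for 9 members, as each effect is a contrast within its own table. *Pygo1* was below the filter over the 12 libraries. By limma, 0 of 9 members had an adjusted p under 0.05 (range 0.645 to 0.993), against 0% of 16252 genes, and 0 had an unadjusted p under 0.05, against 8.95% of all genes (1455 genes). Over the 7 members also tested in crypts the differences ran from -0.15 for *Bcl9l* to 0.18 for *Pygo2*. *Tcf7l1* and *Lef1* passed the filter over the 12 libraries through their tumor values, and the crypt values in their differences come from few fragments. Their signs depended on scaling: 5 of 9 were negative as deposited and 8 of 9 with the same FPKM total. That rescaling put the median of all genes at -0.22, from -0.0046.

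Levels in tumors and crypts can be set side by side but not tested, because the tables were normalized separately and differ in tissue, in region of the gut and in the APCmin/+ allele. Age may differ too, since the figure legends of the study give it for the tumor mice and not for these crypt libraries. The *Xist*-expressing libraries are all tumor libraries. As deposited, 7 of the 9 members that passed the filter over both tables had all 6 tumor libraries above all 6 crypt libraries, against 44.4% of the 16252 genes that passed it, and 0 lay wholly below, against 10.3%. *Tcf7l1* and *Lef1* are among the 7 and passed through their tumor values. *Pygo1*, below the filter, also had all tumor libraries above. The exceptions were *Tcf7l2* and *Tle1*, whose tumor and crypt libraries overlapped. With the same FPKM total, *Tcf7l2* also separated (8 of 9, against 61.7% of genes), and without the 50 highest genes the count was 7 of 9 (against 38.3%). The median ratio of control tumors to Wild type crypts over all these genes was 1.46 as deposited, 2.29 with the same total and 1.40 without the 50 highest genes, so ratios of the members are read beside that shift. In bulk RNA, a change in the number of cells that express a gene and a change of RNA per cell cannot be told apart.

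**Figure D2:**
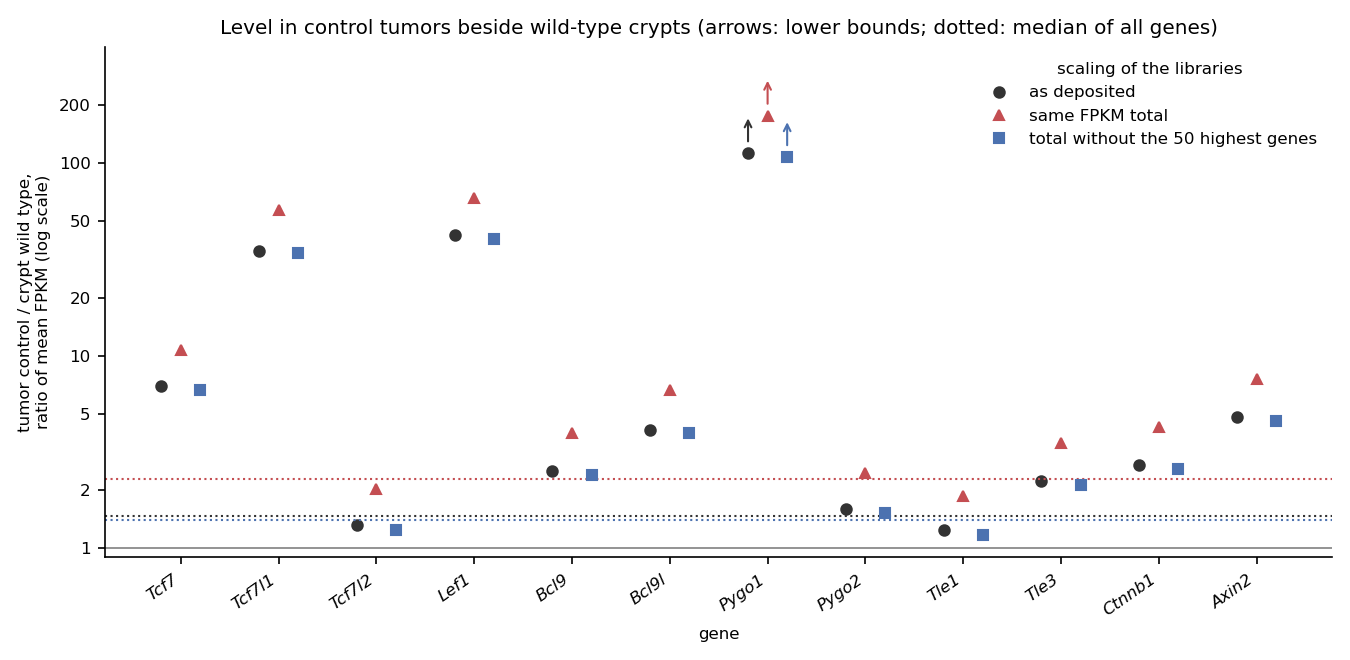
Ratio of the mean FPKM in control tumors to that in Wild type crypts (y axis, log scale) for the 10 members, *Ctnnb1* and *Axin2* (x axis), under 3 scalings of the libraries (symbols), with dotted lines for the median of all genes under each scaling and arrows for the lower bounds of *Pygo1*. *Lef1*, *Tcf7l1* and *Pygo1* stand far above these medians under all 3 scalings, and *Tcf7l2* and *Tle1* lie below them, *Tle1* not so without Wild type crypt replicate 1.

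*Tcf7* (ENSMUSG00000000782; GRCm38 chromosome 11, 52252371 to 52283014, minus strand) encodes TCF1. Its FPKM was 6.52, 5.75 and 4.23 in Wild type crypts and 4.09, 4.64 and 4.18 in ieCtnnb1KO crypts. In control tumors it was 36.3, 33.7 and 45.0, and in knockout tumors 34.4, 31.7 and 31.4. The groups overlapped in both tissues, since Wild type crypt replicate 3 lay within the knockout range and knockout tumor replicate 1 lay above control replicate 2. The log2 fold change was -0.30 (standard error 0.169, limma adjusted p = 0.877) in crypts and -0.22 (standard error 0.121, limma adjusted p = 0.424) in tumors. Without the *Xist*-expressing libraries the tumor value was -0.08, since the highest control library was one of them. Every tumor library exceeded every crypt library, with a mean of 38.3 ± 5.89 (SD, n = 3) in control tumors beside 5.50 ± 1.17 (SD, n = 3) in Wild type crypts, a ratio of 6.97.

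*Tcf7l2* (ENSMUSG00000024985; chromosome 19, 55741810 to 55933654, plus strand) encodes TCF4, the factor that crypt stem cells require. Its FPKM was 5.83, 5.68 and 3.95 in Wild type crypts and 5.13, 4.84 and 5.29 in ieCtnnb1KO crypts, so the knockout values lay inside the Wild type range. In tumors it was 6.55, 7.20 and 6.67 in controls and 5.77, 6.79 and 6.34 in knockouts, again with overlapping groups. The log2 fold change was -0.00059 in crypts (95% confidence interval -0.39 to 0.38, limma adjusted p = 1.0), with a sign that reversed under several settings, and -0.11 in tumors (95% confidence interval -0.34 to 0.13, limma adjusted p = 0.633). The ratio of control tumors to Wild type crypts was 1.32, below the median of all genes.

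*Tcf7l1* (ENSMUSG00000055799; chromosome 6, 72626378 to 72789254, minus strand) encodes TCF3, which acts mostly as a repressor. It was close to the limit of detection in crypts, with an FPKM of 0.0988, 0.10 and 0.244 in Wild type and 0.0939, 0.106 and 0.145 in ieCtnnb1KO libraries. These values rest on 6, 6 and 15 fragments in Wild type and 6, 7 and 8 in ieCtnnb1KO crypts. In tumors the FPKM was 4.44, 5.11 and 5.93 in controls and 5.92, 5.96 and 7.48 in knockouts. The tumor groups overlapped narrowly, with the lowest knockout library just below the highest control library, and replicate 3 was highest in both groups. *Tcf7l1* was 1 of 2 members that were higher in knockout tumors (log2 fold change 0.30, standard error 0.144, limma adjusted p = 0.388). Without the *Xist*-expressing libraries the value was 0.29, and all knockouts lay above all controls, with only 2 libraries left in each group. The ratio of control tumors to Wild type crypts was 35, and 51.9 without Wild type crypt replicate 3.

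*Lef1* (ENSMUSG00000027985; chromosome 3, 131110471 to 131224356, plus strand) was also near the limit of detection in crypts. Its FPKM was 0.0956, 0.104 and 0.0726 in Wild type and 0.0629, 0.0883 and 0.0810 in ieCtnnb1KO crypts, from between 9 and 14 fragments in each library. In tumors it was 3.11, 3.34 and 5.08 in controls and 2.58, 3.36 and 4.98 in knockouts, from between 365 and 682 fragments. Replicate 3, the *Xist*-expressing library, was the highest in both tumor groups, and the groups overlapped. In tumors its log2 fold change was -0.08 (95% confidence interval -0.70 to 0.54, limma adjusted p = 0.901), the widest interval among the TCF/LEF genes, and -0.11 without those 2 libraries. The ratio of control tumors to Wild type crypts was 42.3.

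*Lef1* and *Tcf7l2*, with a high and a low ratio of control tumors to Wild type crypts, both have RefSeq starts at the 5′ end and inside the gene, so the 250 bases before the most upstream and the most downstream start are shown, from RefSeq on GRCm38.p6. Fragments from either start are counted together, and forms of TCF/LEF genes that lack the β-catenin-binding end cannot be separated at gene level. Letters in capitals mark matches to the TCF/LEF core motif, WWCAAAG with W for A or T, searched on both strands. Entries were found for 9 of the 10 members, with 16 windows, and *Bcl9l* had none. The motif was in 2 of these 16 windows and in 4874 of the 32851 windows of all genes (14.8%), and a match is a description of the letters only. The upstream window of *Lef1* (chr3:131110047-131110296, plus strand) overlaps an exon of the antisense gene *Gm43352*, and the internal one (chr3:131156044-131156293, plus strand) lies in an intron, with a match that begins 147 bases before the start. The upstream window of *Tcf7l2* (chr19:55741560-55741809, plus strand) overlaps no gene, and the internal one (chr19:55895071-55895320, plus strand) lies in an intron, with a match that begins 14 bases before the start.
Lef1 upstream: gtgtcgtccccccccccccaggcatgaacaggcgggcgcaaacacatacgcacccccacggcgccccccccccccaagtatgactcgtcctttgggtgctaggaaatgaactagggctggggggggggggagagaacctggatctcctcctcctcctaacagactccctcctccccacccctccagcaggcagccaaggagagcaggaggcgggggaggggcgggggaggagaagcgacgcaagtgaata
Lef1 internal: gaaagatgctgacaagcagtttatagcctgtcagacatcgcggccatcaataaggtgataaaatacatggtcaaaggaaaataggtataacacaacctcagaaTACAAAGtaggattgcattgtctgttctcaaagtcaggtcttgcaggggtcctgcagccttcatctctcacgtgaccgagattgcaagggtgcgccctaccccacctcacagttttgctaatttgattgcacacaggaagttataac
Tcf7l2 upstream: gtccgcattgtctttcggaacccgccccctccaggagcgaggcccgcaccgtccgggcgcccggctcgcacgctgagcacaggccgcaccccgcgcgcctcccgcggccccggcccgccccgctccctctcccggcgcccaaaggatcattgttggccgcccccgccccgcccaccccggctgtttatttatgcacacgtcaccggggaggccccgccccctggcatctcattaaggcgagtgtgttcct
Tcf7l2 internal: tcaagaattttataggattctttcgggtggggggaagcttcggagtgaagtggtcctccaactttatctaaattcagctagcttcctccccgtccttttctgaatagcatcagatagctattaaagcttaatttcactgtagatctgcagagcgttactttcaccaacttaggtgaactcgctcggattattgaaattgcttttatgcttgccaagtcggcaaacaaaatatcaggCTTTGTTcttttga

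**Figure D3:**
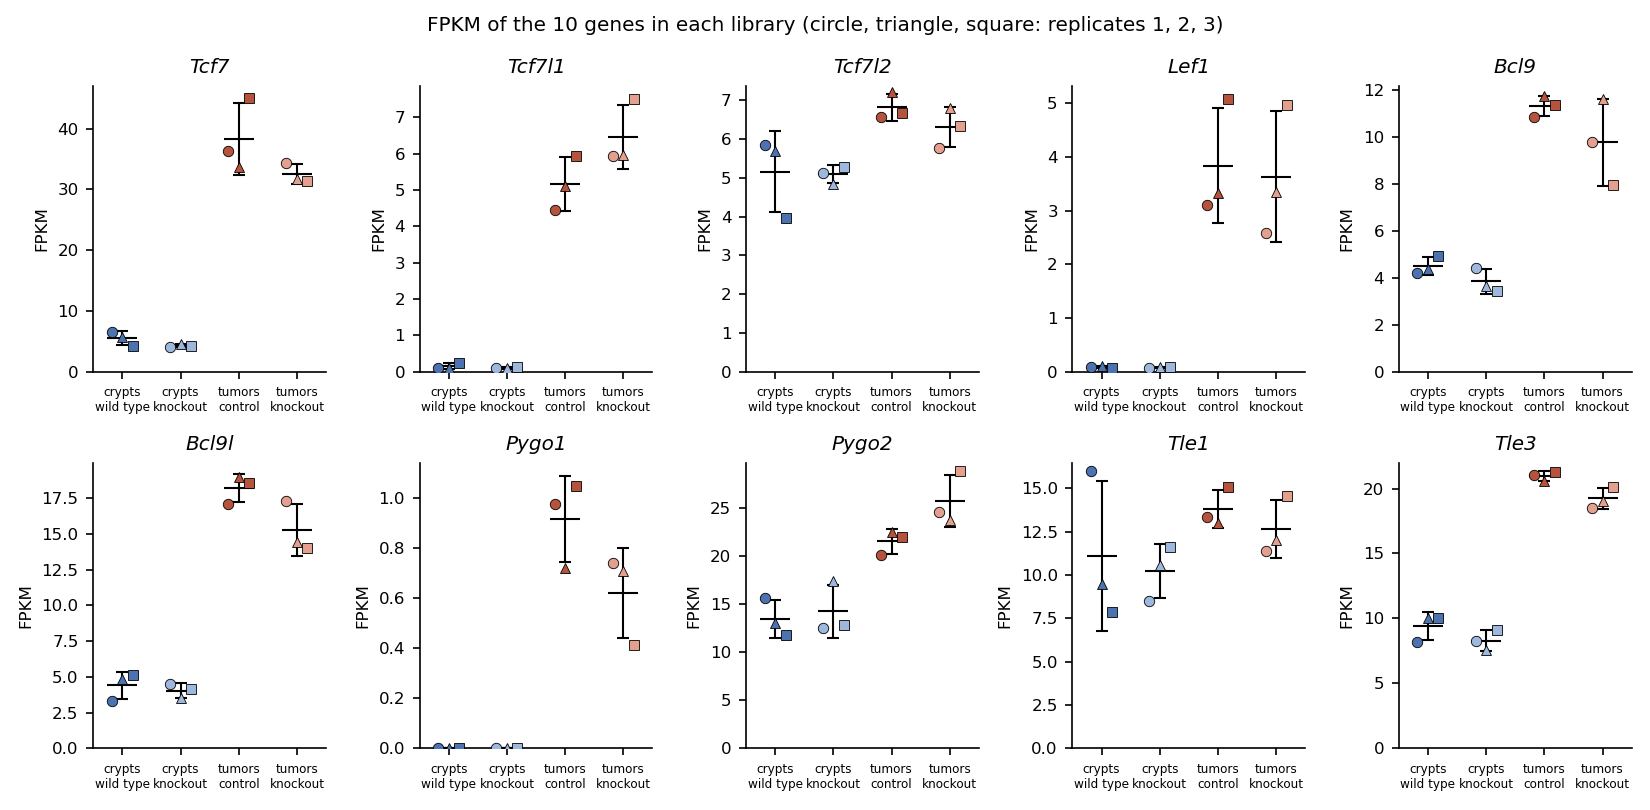
FPKM (y axes, each from 0) of the 10 members in each library of the 4 groups (x axes), with circles, triangles and squares for replicates 1, 2 and 3 and lines for the mean and SD (n = 3). *Tcf7l1*, *Lef1* and *Pygo1* sit at or near 0 in all 6 crypt libraries and are present in all 6 tumor libraries.

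The makeup of the TCF/LEF family does not depend on how a library was scaled, since each share is taken within a library. In Wild type crypts *Tcf7l2* made up 46.5%, 48.8% and 46.5% of the summed FPKM of the 4 genes, and in ieCtnnb1KO crypts 54.7%, 50% and 54.6%. All 3 knockout crypt libraries exceeded all 3 Wild type libraries, by 5.83 percentage points on the means (exact two-sided permutation test, p = 0.1). When each library was left out in turn, the difference ranged from 5.03 to 7.37 points, and it was 4.19 points for shares of fragments. *Tcf7* and *Tcf7l2* held nearly the whole sum in crypts, so the share of *Tcf7* necessarily moved the other way. That share went from 52.0%, 49.4% and 49.8% to 43.6%, 48.0% and 43.1%. In tumors *Tcf7l2* made up 13.0%, 14.6% and 10.7% in controls and 11.8%, 14.2% and 12.6% in knockouts, with overlapping groups and a difference of 0.144 points (exact two-sided permutation test, p = 1). The 2 *Xist*-expressing libraries gave the lowest share among controls and a middle one among knockouts.

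*Tcf7* dominated the family in tumors, at 72%, 68.3% and 71.8% in controls and 70.7%, 66.3% and 62.6% in knockouts. *Tcf7l1* contributed 8.80%, 10.4% and 9.47% in controls and 12.2%, 12.5% and 14.9% in knockouts, where all knockout libraries were above all controls, a pattern that was picked out after its values were seen. *Lef1* contributed 6.16%, 6.76% and 8.10% in controls and 5.30%, 7.01% and 9.91% in knockouts. In crypts, by contrast, *Tcf7* and *Tcf7l2* together held nearly the whole sum, with at most 2.87% for *Tcf7l1* and 0.913% for *Lef1* in any library. The summed FPKM of the family was 12.5, 11.6 and 8.49 in Wild type crypts, 9.38, 9.67 and 9.69 in ieCtnnb1KO crypts, 50.4, 49.4 and 62.6 in control tumors and 48.7, 47.8 and 50.2 in knockout tumors. *Ctnnb1* FPKM over that sum averaged 11.9 ± 2.44 over Wild type crypts, 10.8 ± 0.0265 over ieCtnnb1KO crypts, 6.33 ± 0.899 over control tumors and 5.30 ± 0.391 over knockout tumors (SD, n = 3 each), with overlapping groups within each tissue.

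**Figure D4:**
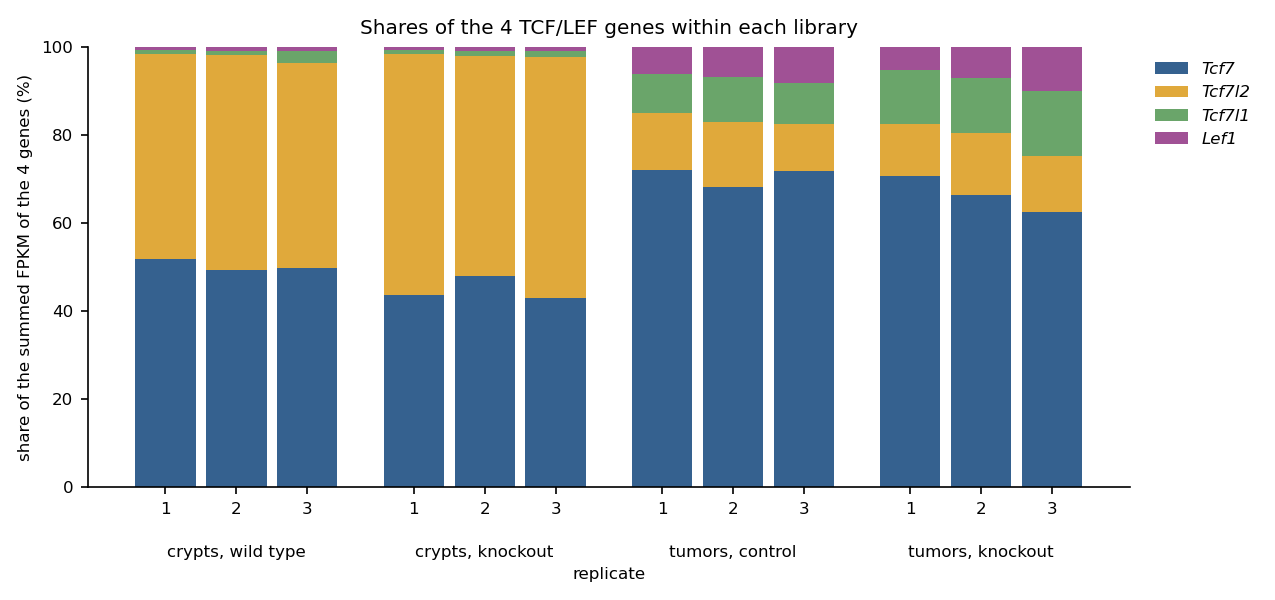
Share of each TCF/LEF gene in their summed FPKM (y axis, percent) in each of the 12 libraries (x axis, replicates within groups). *Tcf7l2* makes up between 46.5% and 54.7% of the sum in crypts and between 10.7% and 14.6% in tumors.

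*Bcl9* (ENSMUSG00000038256; chromosome 3, 97203662 to 97297917, minus strand) and *Bcl9l* (ENSMUSG00000063382; chromosome 9, 44482825 to 44511896, plus strand) encode the adaptors between β-catenin and Pygopus. The FPKM of *Bcl9* was 4.22, 4.37 and 4.94 in Wild type and 4.44, 3.64 and 3.46 in ieCtnnb1KO crypts, and 10.9, 11.7 and 11.4 in control and 9.77, 11.6 and 7.94 in knockout tumors. The groups overlapped in both tissues. Its log2 fold change was -0.21 in crypts (standard error 0.137, limma adjusted p = 0.896) and -0.22 in tumors (standard error 0.140, limma adjusted p = 0.488), and -0.08 in tumors without the *Xist*-expressing libraries. The FPKM of *Bcl9l* was 3.34, 4.82 and 5.10 in Wild type and 4.47, 3.51 and 4.15 in ieCtnnb1KO crypts, and 17.1, 19.0 and 18.5 in control and 17.3, 14.4 and 14 in knockout tumors. Knockout tumor replicate 1 lay within the control range and the other 2 below it. For *Bcl9l* the log2 fold change was -0.10 in crypts (standard error 0.180, limma adjusted p = 0.958) and -0.25 in tumors (95% confidence interval -0.50 to 0.00032, limma adjusted p = 0.346), and -0.18 in tumors without the *Xist*-expressing libraries.

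The pair was more abundant in tumors, with ratios of control tumors to Wild type crypts of 2.51 for *Bcl9* and 4.12 for *Bcl9l*. *Bcl9l* made up 44.1%, 52.4% and 50.8% of their sum in Wild type and 50.1%, 49.1% and 54.5% in ieCtnnb1KO crypts. In tumors it made up 61.1%, 61.8% and 62.0% in controls and 63.9%, 55.4% and 63.8% in knockouts. Shares overlapped between knockout and control in crypts and in tumors (exact two-sided permutation tests, p = 0.6 and p = 1), while those of all 6 tumor libraries lay above those of all 6 crypt libraries. The summed FPKM of the pair was 28, 30.7 and 29.9 in control tumors and 27.1, 26.1 and 22.0 in knockout tumors. All 3 knockout sums were below all control sums (exact two-sided permutation test, p = 0.1), a pattern picked out after its values were seen.

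*Pygo1* (ENSMUSG00000034910; chromosome 9, 72925645 to 72952181, plus strand) and *Pygo2* (ENSMUSG00000047824; chromosome 3, 89430214 to 89435128, plus strand) encode the Pygopus proteins, which read methylated histone tails. *Pygo1* had 0 fragments in all 6 crypt libraries. In tumors its FPKM was 0.975, 0.720 and 1.05 in controls and 0.738, 0.709 and 0.413 in knockouts, from between 51 and 125 fragments in each library. The groups overlapped, with knockout replicate 3 the lowest. Its log2 fold change in tumors was -0.34 (95% confidence interval -0.85 to 0.16, limma adjusted p = 0.473), and -0.13 without the *Xist*-expressing libraries, -0.58 by limma-voom and -0.51 with a pseudocount of 0.1. Against a floor of 3 fragments over the 3 Wild type crypt libraries, a limit for counting error only, *Pygo1* was at least 112-fold higher in control tumors, and against the same floor in ieCtnnb1KO crypts at least 76.6-fold higher in knockout tumors.

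By mean FPKM *Pygo2* was the most abundant member in both crypt groups, while in Wild type replicate 1 *Tle1* was higher at 16.0. Its FPKM was 15.6, 13.0 and 11.8 in Wild type and 12.5, 17.4 and 12.8 in ieCtnnb1KO crypts, with overlapping groups. In tumors it was 20.1, 22.5 and 22.0 in controls and 24.6, 23.8 and 28.9 in knockouts. All 3 knockout tumor libraries were above all 3 control libraries (exact two-sided permutation test, p = 0.1). The log2 fold change was 0.07 in crypts (limma adjusted p = 0.971) and 0.25 in tumors (95% confidence interval 0.01 to 0.49, limma adjusted p = 0.340), and 0.18 in tumors without the *Xist*-expressing libraries and 0.14 with equal totals. The ratio of control tumors to Wild type crypts was 1.6. *Pygo2* made up 95.4%, 96.9% and 95.5% of the Pygopus sum in control tumors and 97.1%, 97.1% and 98.6% in knockout tumors, where all knockout libraries were higher (exact two-sided permutation test, p = 0.1), and 100% in every crypt library.

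*Tle1* (ENSMUSG00000008305; chromosome 4, 72117142 to 72200919, minus strand) and *Tle3* (ENSMUSG00000032280; chromosome 9, 61372366 to 61418497, plus strand) encode corepressors that TCF/LEF factors recruit. The FPKM of *Tle1* was 16.0, 9.48 and 7.84 in Wild type and 8.5, 10.6 and 11.6 in ieCtnnb1KO crypts. Wild type replicate 1 was the highest of all 6 crypt libraries and Wild type replicate 3 the lowest. In tumors *Tle1* had an FPKM of 13.3, 13.0 and 15.1 in controls and 11.4, 12 and 14.5 in knockouts, with replicate 3 highest in both groups. The log2 fold change was -0.07 in crypts (95% confidence interval -0.68 to 0.55, limma adjusted p = 0.987) and -0.13 in tumors (95% confidence interval -0.41 to 0.15, limma adjusted p = 0.627). Without the *Xist*-expressing libraries it was -0.16 in tumors, and all knockouts lay below all controls, with only 2 libraries left in each group. The ratio of control tumors to Wild type crypts was 1.24, and 1.59 without Wild type crypt replicate 1, beside a median of 1.51 for all genes without that library.

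*Tle3* had an FPKM of 8.20, 9.99 and 10.1 in Wild type and 8.25, 7.54 and 9.09 in ieCtnnb1KO crypts, with overlapping groups. In tumors it was 21.0, 20.6 and 21.3 in controls and 18.5, 19.0 and 20.1 in knockouts. All 3 knockout tumor libraries were below all 3 controls (exact two-sided permutation test, p = 0.1), and the controls spread over less than 1 FPKM. The log2 fold change was -0.17 in crypts (standard error 0.133, limma adjusted p = 0.899) and -0.12 in tumors (standard error 0.0746, limma adjusted p = 0.472), and -0.14 in tumors without the *Xist*-expressing libraries. With equal totals it was -0.03 in crypts and -0.23 in tumors. The share of *Tle3* in the sum with *Tle1* was 33.9%, 51.3% and 56.2% in Wild type and 49.3%, 41.7% and 44.0% in ieCtnnb1KO crypts. In tumors it was 61.2%, 61.3% and 58.5% in controls and 62.0%, 61.3% and 58.1% in knockouts. Shares overlapped within both tissues (exact two-sided permutation tests, p = 0.9 in crypts and p = 0.8 in tumors). The ratio of control tumors to Wild type crypts was 2.22 for *Tle3*.

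By mean FPKM in Wild type crypts the order was *Pygo2*, *Tle1*, *Tle3*, *Tcf7*, *Tcf7l2*, *Bcl9*, *Bcl9l*, *Tcf7l1*, *Lef1* and *Pygo1*. Libraries overlapped between neighbors within the first 3, within the next 4, and between *Tcf7l1* and *Lef1*, and separated between these sets. In control tumors the order was *Tcf7*, *Pygo2*, *Tle3*, *Bcl9l*, *Tle1*, *Bcl9*, *Tcf7l2*, *Tcf7l1*, *Lef1* and *Pygo1*, where only *Pygo2* and *Tle3*, and *Tcf7l1* and *Lef1*, overlapped as neighbors. Among 22046 protein-coding genes of a library, *Tcf7* stood between percentiles 66.7 and 73.8 in crypts and between 91.4 and 95.4 in tumors, and *Tcf7l2* between 66.5 and 72 in crypts and between 64.9 and 68.9 in tumors.

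Fragments of overlapping genes could enter these values, since the sources used here do not say whether counting used strand. The largest overlaps were *Cxcr5*, opposite to *Bcl9l*, with 356 fragments in the crypts and 48 in the tumors, and *A630014C17Rik*, opposite to *Tcf7*, with 24 and 231. Within *Tcf7l1*, *Gm15401* on the opposite strand had 0 fragments in the crypts and 198 in the tumors, and *Gm37969* on the same strand had 1 and 227. *Gm43352*, opposite to *Lef1*, had 0 and 43.

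Other genes around these members were given by lists. Of 29 other nuclear partners of β-catenin or TCF/LEF in the tables, 27 were tested in crypts and 29 in tumors. In crypts 1 of 27 had an unadjusted p under 0.05, lower in the knockout (0 with equal totals), and 14 of 27 were higher as deposited, 21 with equal FPKM totals, 11 with quantile normalization and 8 without the 50 highest genes (as deposited, median log2 fold change 0.01, and 0.01 for all tested genes). In tumors 10 of 29 had an unadjusted p under 0.05, 6 lower and 4 higher, a share of 34.5% beside 14.5% of all genes (between 9 and 12 genes under the rescalings and limma-voom), and 0 had a limma adjusted p under 0.05 (lowest 0.269). In tumors 19 of 29 were lower (19 or 21 under the other scalings), with a median log2 fold change of -0.08. With equal totals the median was 0.15 in crypts and -0.18 in tumors, beside 0.14 and -0.09 for all genes. *Aes*, which encodes a short TLE-related protein, was the most abundant in both tissues, with FPKM of 112, 102 and 100 in control tumors and 128, 122 and 139 in knockout tumors. All 3 knockout tumor libraries were higher for *Aes* (log2 fold change 0.31, limma adjusted p = 0.298), while in crypts it was 85.4, 90.2 and 136 in Wild type and 123, 115 and 111 in ieCtnnb1KO libraries, which overlapped. *Sox17*, which binds TCF/LEF factors and β-catenin and marks endothelium, had 0 fragments in all crypts and FPKM of 39.0, 42.9 and 32.3 in control tumors and 27.6, 20.4 and 23.7 in knockout tumors (log2 fold change -0.66, limma adjusted p = 0.269, lower in 3 of 3 knockout libraries). Endothelial markers summed to 36.9, 34.2 and 29.9 in control and 39.2, 37.9 and 38.4 in knockout tumors as deposited. Which cells held the *Sox17* RNA was not tested. The others named by rule had FPKM means of 49.5 and 52.3 for *Ctbp1*, 6.94 and 5.36 for *Med12*, and 3.28 and 4.09 for *Crebbp* in Wild type and ieCtnnb1KO crypts, and 71.5 and 65.6 for *Ldb1* in control and knockout tumors (limma adjusted p between 0.625 and 0.949).

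Of the 17 genes of β-catenin and its destruction complex, 16 were tested in each tissue. In crypts 9 were lower as deposited but 4 with equal FPKM totals and 15 without the 50 highest genes, 0 had an unadjusted p under 0.05 by limma or by limma-voom (1 with quantile normalization and 1 without the 50 highest genes), against 5.85% of all genes, and the median log2 fold change was -0.01. In tumors 13 of 16 were lower (14 under each other scaling), 3 had an unadjusted p under 0.05, 18.8% beside 14.5% of all genes (5 by limma-voom, 6 with equal totals, and 7 with quantile normalization and without the 50 highest genes), 0 had an adjusted p under 0.05, and the median was -0.17. With equal totals the median was 0.12 in crypts and -0.28 in tumors, beside 0.14 and -0.09 for all genes. *Amer1* had an FPKM of 3.35, 2.73 and 3.48 in control and 2.39, 2.38 and 1.89 in knockout tumors (limma adjusted p = 0.305), with all knockouts lower. Means in crypts were 36.7 and 38.0 for *Csnk1a1* and 3.45 and 2.87 for *Csnk1e*, and in tumors 61.8 and 59.8 for *Csnk1d*, in control and knockout order.

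Of 25 Wnt target genes in the tables, 21 were tested in crypts and 25 in tumors. In crypts 15 of 21 were lower in the knockout as deposited, 14 with equal totals and 17 under the other 2 rescalings, and 3 had an unadjusted p under 0.05, all lower (14.3% beside 5.85% of all genes; between 2 and 5 genes under the rescalings and limma-voom). In tumors 18 of 25 were lower (20 or 21 under the other scalings), and 7 had an unadjusted p under 0.05, 6 lower and 1 higher (28% beside 14.5%; 10 genes under each rescaling, 7 by limma-voom). By limma, 0 had an adjusted p under 0.05 in crypts or in tumors. The median log2 fold change was -0.22 in crypts and -0.15 in tumors, beside 0.01 for all genes in both. With equal totals it was -0.10 in crypts and -0.26 in tumors, beside 0.14 and -0.09 for all genes. Quantile normalization gave -0.25 in crypts and -0.28 in tumors, beside 0.01 and -0.01. *Rnf43* had an FPKM of 70.8, 74.1 and 74.5 in control and 59.1, 55.1 and 59.5 in knockout tumors, all lower (limma adjusted p = 0.269). *Cdx1* went the other way in tumors, with 53.5, 69.2 and 56.4 in controls and 88.2, 97.3 and 86.0 in knockouts (limma adjusted p = 0.269). *Cdx1* in crypts had means of 129 in Wild type and 150 in ieCtnnb1KO libraries, which overlapped. *Mmp7*, which is also in the Paneth cell list, had means of 413 and 248 in Wild type and ieCtnnb1KO crypts, lower in all 3 knockout libraries, and 341 and 414 in control and knockout tumors, which overlapped. *Bambi* in crypts had means of 3.83 and 2.33, lower in all 3 knockout libraries, and *Wif1* in tumors had means of 239 and 213, which overlapped.

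Set beside crypts as deposited, the median ratio of control tumors to Wild type crypts was 1.85 for the 29 other nuclear partners. It was 2.06 for the destruction complex and 4.98 for the Wnt target genes, without a test, beside 1.46 for all genes. Equal totals moved the value of all genes to 2.29, and ratios of the lists at that scaling are not given here. For these lists 20 of 29, 16 of 16 and 20 of 25 genes had all tumor libraries above all crypt libraries, beside 44.4% of all genes, and 2 Wnt target genes had all below. Of the 29 partners 27 passed the filter in crypts, and of the 25 Wnt target genes 21. The others, *Sox17* among them, passed through their tumor values.

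Cell type markers were summed in each library, since bulk RNA mixes cell types. Epithelial markers (8 of 8 detected, that is, averaging 0.5 FPKM or more, in both tissues, with *Krt8* the most abundant) summed to between 4055 and 5327 FPKM in crypts, to 4182, 4208 and 3658 in control tumors and to 4938, 4824 and 5089 in knockout tumors. Stem cell markers, of which *Lgr5*, *Ascl2* and *Rgmb* are also among the Wnt target genes (6 of 6 in crypts, 5 of 6 in tumors) summed to between 643 and 1130 in crypts and between 151 and 210 in tumors. *Olfm4*, the most abundant in crypts (530 to 964), was near 0 in tumors (0.0866 to 0.209), where *Slc12a2* led. Without *Olfm4* the other 5 markers summed to between 112 and 170 in crypts and between 151 and 210 in tumors, so the lower sum in tumors rests on *Olfm4*. *Cdx2*, an intestinal identity gene, was between 82.3 and 106 in crypts and between 2.01 and 26.5 in tumors. Paneth cell markers (7 of 7 in both) summed to 19106, 27978 and 52447 in Wild type and between 18212 and 21046 in ieCtnnb1KO crypts, led by *Defa24*, and to between 1360 and 4130 in tumors, led by *Lyz1*, highest in knockout replicate 2.

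T cells express *Tcf7* and *Lef1*, so their markers are given as well. T cell markers were detected for 12 of 12 genes in crypts, led by *Cd8a* (17.1 to 20.5), and summed to between 60.8 and 73.0. In tumors 7 of 12 were detected, the sum was between 20.1 and 26.4, and *Zap70* led, while *Cd3e*, *Cd3g*, *Cd247*, *Cd8a* and *Cd8b1* had means under 0.5. *Cd3e* was between 4.94 and 5.90 in crypts and between 0.141 and 0.609 in tumors. *Trac* was between 10.2 and 17.0 in crypts and between 5.20 and 8.44 in tumors. The part of T cells in the levels of *Tcf7* and *Lef1* was not tested. B cell and plasma cell markers (7 of 7 in crypts, 4 of 7 in tumors) were led by *Jchain* in both and summed to between 32.2 and 43.2 in crypts and between 76.8 and 272 in tumors.

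Stromal markers were lower in crypts than in tumors. Endothelial markers (1 of 5 in crypts, 5 of 5 in tumors) summed to between 0.661 and 0.883 in crypts, 36.9, 34.2 and 29.9 in control tumors and 39.2, 37.9 and 38.4 in knockout tumors, led by *Pecam1* in crypts and *Cdh5* in tumors. Fibroblast and smooth muscle markers (2 of 10 in crypts, 10 of 10 in tumors) summed to between 2.10 and 6.68 in crypts, 478, 341 and 312 in control tumors and 495, 591 and 510 in knockout tumors, led by *Dcn* in crypts and *Col1a1* in tumors. Myeloid markers (4 of 7 in crypts, where *S100a8* had 0 fragments, and 7 of 7 in tumors) summed to between 8.76 and 16.9 in crypts and between 462 and 763 in tumors, led by *Lyz2* in both. Epithelial, endothelial and fibroblast sums in tumors were higher in all 3 knockout than in all 3 control libraries as deposited (exact two-sided permutation tests, p = 0.1 each). With equal totals or without the 50 highest genes, the epithelial sums stayed apart and the endothelial and fibroblast sums overlapped. The endothelial sum in crypts was lower in all 3 knockout libraries as deposited and without the 50 highest genes, and overlapped with equal totals. The epithelial sum in crypts was higher in all 3 knockout libraries with equal totals, and overlapped as deposited and without the 50 highest genes. The part of stromal and immune cells in the levels of the members was not tested.

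**Figure D5:**
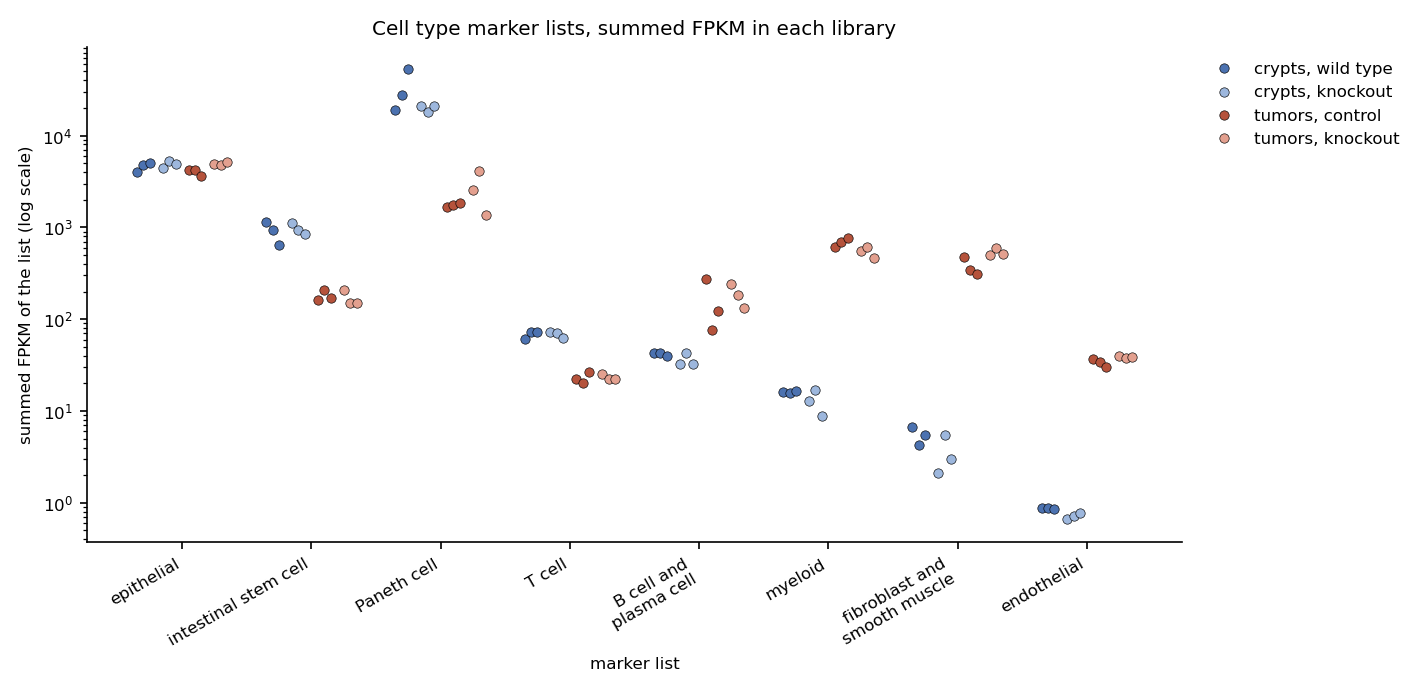
Summed FPKM (y axis, log scale) of 8 cell type marker lists (x axis) in each library, colored by group with 3 points for each. Myeloid, fibroblast and endothelial sums are low in crypts and high in tumors, and T cell sums the reverse.

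The genes most like the TCF/LEF genes were taken by Pearson correlation of log2(FPKM + 0.5) within a table, knockouts and controls together, as a description over 6 libraries among 14550 genes in tumors and 12287 in crypts. In crypts these were *Yae1d1*, *Notch2* and *Nedd1* for *Tcf7* (r between 0.990 and 0.996) and *Mtmr1*, *Cpsf6* and *Nf1* for *Tcf7l2* (between 0.986 and 0.988), while *Tcf7l1* and *Lef1* had too few fragments. In tumors they were *Rhobtb3*, *Gm5814* and *Wdr43* for *Tcf7* (between 0.985 and 0.994), *Cebpd*, *Hspa4* and *Cyp4f16* for *Tcf7l1* (between 0.984 and 0.988), and *Crnkl1*, *Cript* and *Rps12-ps3* for *Lef1* (between 0.976 and 0.989).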

How the data were processed

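RNA-seq libraries of small intestine crypts and colon tumors were used, 3 in each of 4 groups. The authors deposited FPKM, made with cutadapt, HISAT2 and Cufflinks 2.2.1 on mm10 per the labels, and tested with DESeq2; the methods of the study name featureCounts for counting, and which tool made the FPKM was not settled. Fragments per gene were recovered from the steps of FPKM times gene length. Genes averaging at least 0.5 FPKM were tested by limma 3.58.1 (R 4.3.3) on log2(FPKM + 0.5) with a variance trend. Shares were compared by exact two-sided permutation tests (SciPy 1.17.1, Python 3.11.15, numpy 2.4.6, pandas 2.3.3), and figures used matplotlib 3.10.9. Alternatives changed the pseudocount, filter, scaling, variance model, replicate block, fragments (limma-voom, at the deposited scaling) and each library in turn. Leaving out the *Xist*-expressing libraries and comparing group overlap under other scalings, tissue ratios without a crypt library and the stem cell sum without *Olfm4* were chosen after seeing the data. Besides the members, *Ctnnb1* and *Axin2*, each of 3 gene lists gave the pair of genes with the highest mean FPKM and the pair with the smallest unadjusted p in a tissue, and each cell type list its most abundant gene; other names were picked after their values were seen. Members and lists were chosen with earlier results of these data known. Some items are not reported here.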

Additional observations from a re-analysis of the deposited data

How the results depend on the processing

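No member had an adjusted p under 0.05 by limma under any of the 434 alternatives run (lowest 0.277), nor had another named gene under 363 (lowest 0.191). With a library left out, 92 member log2 fold changes kept their sign and 10 reversed, and 91 differences between knockout effects kept theirs and 17 reversed. Under the other alternatives 173 and 40 kept their sign and 6 and 5 reversed.

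Without the filter, 1349 crypt genes and 2296 genes of the difference between knockout effects had an unadjusted p under 0.05, and 6 of the latter had an adjusted p under 0.05. With a pseudocount of 0.1 that difference had 1 such gene, and without a variance trend tumors had 1. Without the *Xist*-expressing libraries 1205 tumor genes had an unadjusted p under 0.05, with fewer libraries in the fit. Otherwise the cause was not tested.

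With equal FPKM totals, log2 fold changes in crypts reversed for *Tcf7l2* (0.13), *Bcl9l* (0.034) and *Tle1* (0.074), and differences between knockout effects for *Tcf7* (-0.16), *Pygo2* (-0.075) and *Tle3* (-0.20). *Tcf7l2* in crypts was also reversed at 0.00092 with a pseudocount of 0.1, 0.0017 with quantile normalization and 0.0010 by limma-voom. A pseudocount of 0.1 reversed the differences for *Lef1* (0.011) and *Bcl9* (0.0031). *Csnk1a1* in crypts reversed with quantile normalization (-0.044) and without the 50 highest genes (-0.0069), and *Ctbp1* with quantile normalization (-0.039). Values that kept their sign also moved with equal totals, as in crypts for *Tcf7* (-0.17), *Bcl9* (-0.076) and *Pygo2* (0.22), and in tumors for *Tcf7* (-0.33), *Tcf7l1* (0.20), *Tcf7l2* (-0.21), *Lef1* (-0.18), *Bcl9* (-0.32), *Bcl9l* (-0.36), *Tle1* (-0.23) and *Ctnnb1* (-0.50). The *Tcf7l2* share in tumors differed by -0.205 points from fragments. Equal totals moved the ratios of control tumors to Wild type crypts to 10.7 (*Tcf7*), 2.04 (*Tcf7l2*), 66.0 (*Lef1*), 3.96 (*Bcl9*), 6.60 (*Bcl9l*), at least 176 (*Pygo1*), 2.47 (*Pygo2*), 1.87 (*Tle1*) and 3.52 (*Tle3*). For *Tcf7l1* it was 57.0, within 1 SD of its spread between replicates. The cause was not tested.

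With each library left out in turn, genes with a limma adjusted p under 0.05 ranged from 0 to 3 in crypts and from 0 to 3 for the difference between effects, both 3 without Wild type crypt replicate 3, and were 0 in tumors. Genes with an unadjusted p under 0.05 ranged from 462 (without ieCtnnb1KO crypt replicate 1) to 1344 (without Wild type crypt replicate 1) in crypts, from 1399 (without control tumor replicate 2; 1436 without replicate 3) to 2755 in tumors, and from 1012 to 2035 for the difference. Crypt log2 fold changes ranged from -0.16 to 0.090 for *Tcf7l2*, -0.27 to 0.0026 for *Bcl9l*, -0.075 to 0.18 for *Pygo2*, -0.27 to 0.22 for *Tle1*, -0.032 to 0.13 for *Csnk1a1* and -0.036 to 0.16 for *Ctbp1*. With their sign kept, they ranged from -0.47 to -0.18 for *Tcf7*, -0.30 to -0.15 for *Bcl9* and -0.26 to -0.11 for *Tle3*. The range was -0.44 to -0.23 for *Axin2* and 0.044 to 0.34 for *Cdx1*. In tumors log2 fold changes ranged from -0.30 to 0.11 for *Lef1* and -0.087 to 0.0075 for *Csnk1d*. With their sign kept, tumor values ranged from -0.31 to -0.11 for *Tcf7*, 0.19 to 0.39 for *Tcf7l1* and -0.16 to -0.048 for *Tcf7l2*. The range was -0.34 to -0.083 for *Bcl9*, -0.45 to -0.20 for *Pygo1*, 0.17 to 0.30 for *Pygo2* and -0.23 to -0.057 for *Tle1*. Differences between effects ranged from -0.043 to 0.24 for *Tcf7*, -0.20 to 0.059 for *Tcf7l2*, -0.27 to 0.15 for *Lef1*, -0.14 to 0.13 for *Bcl9*, -0.25 to 0.018 for *Bcl9l*, -0.35 to 0.15 for *Tle1* and -0.013 to 0.14 for *Tle3*. Share differences ranged from 5.03 to 7.37 points for *Tcf7l2* in crypts, -0.902 to 1.06 for *Tcf7l2* in tumors, -0.354 to 3.78 and -2.02 to 2.24 for *Bcl9l* in crypts and tumors, 1.19 to 2.18 for *Pygo2* in tumors, and -8.77 to 2.38 and -0.775 to 1.30 for *Tle3* in crypts and tumors. The cause was not tested.

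Scaling moved the direction of genes with an unadjusted p under 0.05. In crypts 494 were higher and 335 lower as deposited, 734 and 159 with equal totals, and 285 and 508 without the 50 highest genes. In tumors 1417 were higher and 1004 lower as deposited, 731 and 1785 with equal totals, 1116 and 1282 with quantile normalization, and 730 and 1953 without the 50 highest genes. For the difference 837 were positive and 618 negative as deposited, and 289 and 1560 with equal totals.

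With the replicate number as a replicate block, 0 genes had a limma adjusted p under 0.05 in crypts (732 unadjusted) and 0 in tumors (1882 unadjusted). Correlations of deviations between libraries of the same number were -0.0466, -0.122 and 0.037 in crypts and 0.0541, -0.0898 and 0.0525 in tumors. In tumors replicate 3 is the *Xist*-expressing library of both groups, so there the number carries a shared trait.

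With 3 libraries against 3, and low counts for *Lef1*, *Tcf7l1* and *Pygo1* in crypts, small differences were not detectable. The filter removed these 3 genes from the tests in crypts.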
